A study of Rattus norvegicus with 6 samples.

Results

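The 32 genes described here are heat shock chaperones with their co-chaperones and heat shock factor 1, and genes of the endoplasmic reticulum (ER) stress response. They were taken by name from the count tables of a single-cell RNA sequencing study of the injured rat spinal cord, and all 32 are among the 28615 genes that the 4 time-course tables list. The injected libraries list 31 of them, and Hspa1a was not analysed there. The members fall into 9 groups: 5 genes of the HSP70 and HSP110 families, 2 of HSP90, the small heat shock protein Hspb1, 2 mitochondrial chaperonins, 3 co-chaperones, Hsf1, 12 ER chaperones and folding enzymes, 4 genes of stress signalling (Atf4, Ddit3, Xbp1 and Trib3), and 2 of ER-associated degradation.

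The study used SD rats aged 6 to 8 weeks with a crush injury of the cord at the 10th thoracic level. One library was made at each of day 1, day 3 and day 7 after injury, and one from cord that its title calls intact, although the treatment label of that library also names the crush. A second pair came from injured cord injected at day 3 with MPSS at 10 mg/ml in PBS, or with PBS alone, and collected at week 2. MPSS is not spelled out in the labels, and the titles of the second pair call them re-analyzed. The labels name 5 animals per condition and do not say whether these were pooled. With 1 library per group there is no replicate check, so no difference below has a test. Each interval is an exact 95% interval that covers counting error only.

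Heat shock chaperones bind unfolded protein in the cytosol and in mitochondria, and heat shock factor 1 raises the transcription of many of them after heat or other protein damage. Misfolded protein in the ER instead activates the unfolded protein response, in which the transcription factors ATF6, XBP1 and ATF4 raise ER chaperones, folding enzymes and degradation factors. In the spinal cord and brain the small heat shock protein HSPB1 is known as a gene of endothelial cells and of reactive astroglia. The tissue here was digested with collagenase and then trypsin at body temperature, a step that is itself known to raise heat shock genes and immediate early genes. The intact cord went through the same digestion, and the part of the digestion in any level below was not tested.

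The promoters of 26 members were matched by symbol in RefSeq sequence of the rat build GRCr8, each window running from 250 bases before to 50 bases after the gene start. A heat shock element, searched on both strands as TTC, GAA and TTC with any 2 bases between one and the next, stood in the windows of 5 members (Hspa8, Hsph1, Hspd1, Hspe1 and Dnaja1) and in 0.798% of all 33469 windows of that length. The ER stress response element, CCAAT and CCACG with any 9 bases between them, stood in 7 members (Hspa5, Hsp90b1, Calr, Canx, Creld2, Dnajc3 and Xbp1) and in 0.0657% of all windows. A second form of that element, ATTGG and CCACG with any 1 base between them, stood in Herpud1 and in 0.0508% of all windows. The unfolded protein response element TGACGTGG stood in Bag3 and in 0.595% of all windows. The 6 members Hspa1b, Hsp90aa1, Hsf1, Pdia3, Pdia6 and Manf are named only. A match is a description of the letters and no evidence of binding, and overlapping matches of one element were counted as a single run of capitals. The windows below belong to a selection of the members named in the results, with the matched elements in capitals. Hspa1a and Dnajb1, not printed, held no match in their windows. Looser forms of the elements and sequence outside the windows were not searched, so no match does not mean that a gene lacks the element. Hspd1 and Hspe1, which encode the 2 mitochondrial chaperonin subunits, start close together on opposite strands and share the same heat shock elements. Hspd1 and Hspe1 were higher together in microglia at day 1. In ependymal cells at day 1 Hspe1 lay below the intact level, at 531 CPM (494 to 570) against 812 CPM (772 to 854). Hspd1 differed little there, at 240 CPM (216 to 267) against 265 CPM (242 to 290), with intervals that overlap. Of the other members with a heat shock element, Hspa8 was higher in day 1 microglia by less than 2-fold, Hsph1 was nearly level and Dnaja1 was lower. Any relation of the elements to the levels was not tested. Hspa5, Calr, Creld2 and Xbp1 carry ER stress response elements and behaved differently from each other and between cell classes. Hspb1, which had the largest ependymal ratio, held no letters of the searched elements in its window.
Hspd1, chr9:64083988-64084287, minus strand: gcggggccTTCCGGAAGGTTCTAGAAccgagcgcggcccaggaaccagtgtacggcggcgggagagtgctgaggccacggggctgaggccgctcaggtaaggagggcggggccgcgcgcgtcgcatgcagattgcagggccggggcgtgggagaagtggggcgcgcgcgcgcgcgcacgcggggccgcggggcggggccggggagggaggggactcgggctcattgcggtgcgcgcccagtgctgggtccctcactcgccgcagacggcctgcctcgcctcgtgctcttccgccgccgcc
Hspe1, chr9:64084077-64084376, plus strand: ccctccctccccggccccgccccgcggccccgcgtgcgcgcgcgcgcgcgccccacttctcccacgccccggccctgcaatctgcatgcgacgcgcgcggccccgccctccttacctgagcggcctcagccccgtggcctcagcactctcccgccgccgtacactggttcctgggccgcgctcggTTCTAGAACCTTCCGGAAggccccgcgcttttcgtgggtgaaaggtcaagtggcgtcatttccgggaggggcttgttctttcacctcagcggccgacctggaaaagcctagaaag
Hspa5, chr3:38452766-38453065, plus strand: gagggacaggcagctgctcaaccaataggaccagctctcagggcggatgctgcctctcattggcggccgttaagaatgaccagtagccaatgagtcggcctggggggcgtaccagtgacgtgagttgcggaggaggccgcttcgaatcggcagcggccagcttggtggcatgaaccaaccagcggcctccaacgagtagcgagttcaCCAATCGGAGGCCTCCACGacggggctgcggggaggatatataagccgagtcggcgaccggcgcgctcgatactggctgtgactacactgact
Calr, chr19:40213117-40213416, plus strand: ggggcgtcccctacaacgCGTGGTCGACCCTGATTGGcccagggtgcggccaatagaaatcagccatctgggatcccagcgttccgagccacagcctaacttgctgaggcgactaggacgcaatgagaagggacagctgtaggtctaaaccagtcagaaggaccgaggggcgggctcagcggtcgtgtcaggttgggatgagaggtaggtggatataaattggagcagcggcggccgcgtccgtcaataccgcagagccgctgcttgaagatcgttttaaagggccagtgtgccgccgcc
Creld2, chr7:121789134-121789433, plus strand: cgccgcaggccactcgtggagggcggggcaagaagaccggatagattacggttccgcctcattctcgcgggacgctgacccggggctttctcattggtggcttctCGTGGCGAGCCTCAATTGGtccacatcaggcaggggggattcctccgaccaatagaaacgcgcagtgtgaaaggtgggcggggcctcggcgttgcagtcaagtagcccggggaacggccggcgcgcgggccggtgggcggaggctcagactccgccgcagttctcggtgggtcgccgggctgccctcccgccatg
Xbp1, chr14:84604373-84604672, plus strand: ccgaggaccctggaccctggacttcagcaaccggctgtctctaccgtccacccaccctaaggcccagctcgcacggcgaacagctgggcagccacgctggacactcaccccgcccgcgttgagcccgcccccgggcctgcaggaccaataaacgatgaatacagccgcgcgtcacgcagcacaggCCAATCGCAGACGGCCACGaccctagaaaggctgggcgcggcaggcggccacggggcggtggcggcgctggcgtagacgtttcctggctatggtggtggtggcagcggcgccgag
Hspb1, chr12:26432252-26432551, minus strand: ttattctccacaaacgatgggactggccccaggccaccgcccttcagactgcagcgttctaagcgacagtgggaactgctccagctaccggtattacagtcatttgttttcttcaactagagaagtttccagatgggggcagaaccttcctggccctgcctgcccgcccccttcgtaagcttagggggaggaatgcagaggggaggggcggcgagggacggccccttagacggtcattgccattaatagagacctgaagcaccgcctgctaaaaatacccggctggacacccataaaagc

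After filtering, the time-course libraries held 2757 cells (intact), 7360 (day 1), 9263 (day 3) and 7467 (day 7), and the injected libraries held 2091 (MPSS) and 1377 (PBS). The median depth was 3090 to 6648 unique molecular identifiers (UMIs) per cell in the time course, and 10417 (MPSS) and 10292 (PBS) in the injected pair. Cells were put in classes by marker genes. Levels are the UMIs of a gene summed over the cells of a class and library, per 1000000 UMIs of that sum (CPM), and a cell type with less RNA per cell cannot be told apart in such a sum from a lower level per cell. UMIs were counted from one end of each transcript, so levels are compared within a gene and not between genes. Microglia numbered 806 (intact), 1513 (day 1), 2860 (day 3) and 3781 (day 7), endothelial cells 1136, 1166, 1378 and 1226 in the same order, and ependymal cells 566, 249, 367 and 336. Macrophages numbered 41 in the intact cord, too few for a ratio, and 2559, 3047 and 547 after injury. The pair of injected libraries names its genes differently from the time course, with 24.8% of the names in a mouse clone style in the time course and 0.0479% in the injected pair, so levels were compared within each set only. Cell barcodes shared between any 2 libraries made up 0.214% to 1.67% of the smaller one.

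In the intact cord the heat shock genes were divided between endothelial and ependymal cells. Hspa1a, an inducible HSP70, stood at 3579 CPM in endothelial cells, against 1145 CPM in microglia (3.13-fold, 3.01 to 3.25) and 126 CPM in the lowest class, neutrophils. Hspa1b, its near-identical copy whose reads counting may have split or merged with it, stood at 263 CPM in endothelial cells, and the 2 copies together at 3841 CPM there and 1219 CPM in microglia. Hspb1 stood at 2769 CPM in endothelial cells, 311 CPM in ependymal cells and 88.2 CPM in microglia. Its lowest level of the 7 classes, 24.1 CPM in oligodendrocyte precursors, rested on 2 UMIs. Ependymal cells instead carried Hsp90aa1, the stress-inducible HSP90, at 4743 CPM, against 985 CPM in endothelial cells (4.82-fold, 4.64 to 5.00).

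Over all 32 members, ependymal cells held the highest intact level of 11, and the lead was beyond counting error of the next class for 6 of them. Endothelial cells held the highest level of 6 members, with 4 beyond counting error. Fibroblasts led for 7 from only 30 cells, oligodendrocyte precursors for 5 and microglia for 3 (Sdf2l1, Ddit3 and Herpud1), and in these 3 classes 1, 0 and 0 of the leads lay beyond counting error. At day 1 the order was different, since microglia held the highest level of 12 members, 11 of them beyond counting error. Ependymal cells led again for 9 members at day 3 and for 10 at day 7. The libraries differ in the classes with enough cells to be ranked, and day 1 adds astrocytes, pericytes, T/NK and B cells to those of the intact cord. The share of all genes led by each class is not given. These counts therefore cannot be set beside all genes.

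**Figure D1:**
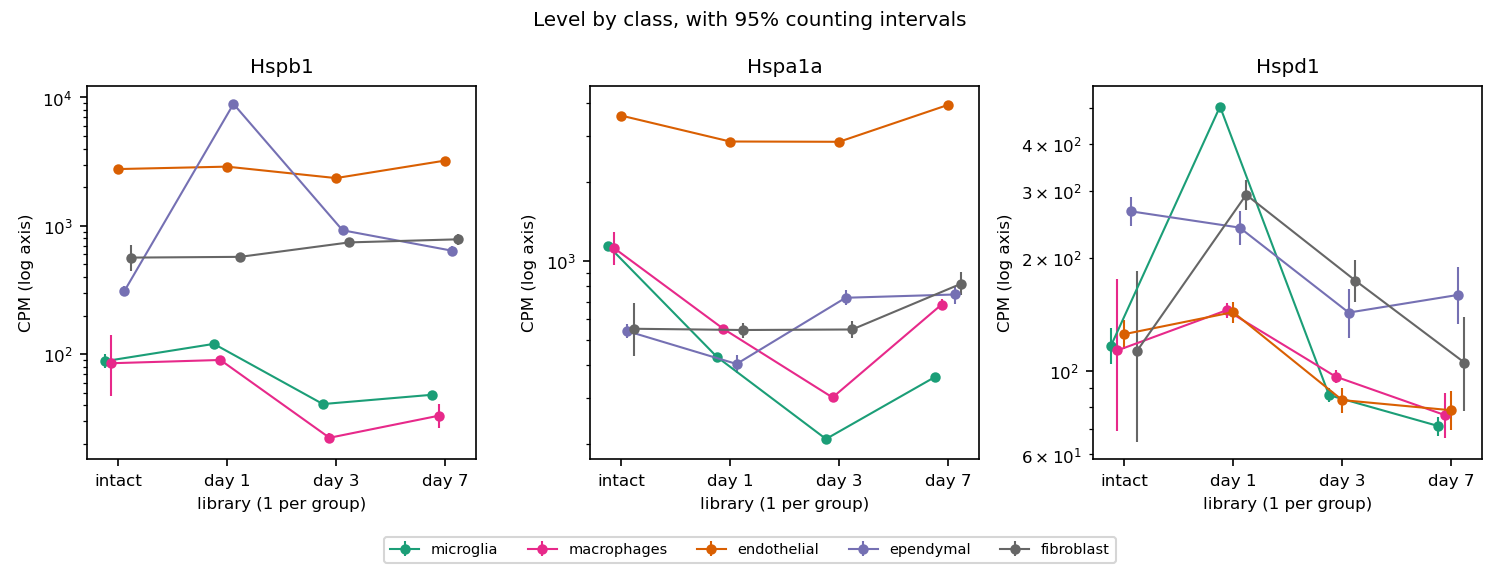
Summed level in CPM on a log axis of Hspb1, Hspa1a and Hspd1 in 5 cell classes and 4 libraries, 1 library per time. Hspb1 reached 8911 CPM in ependymal cells at day 1, and Hspd1 reached 503 CPM in microglia at day 1. Hspa1a stayed at 2843 CPM or more in endothelial cells.

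Microglia at day 1 separated the ER chaperones and mitochondrial chaperonins, which stood above the intact cord, from Hspa1a and its partner Dnajb1, which stood below it. Of 32 members measured, 10 were at least 2-fold higher at day 1 than in the intact cord and 3 at least 2-fold lower, beside 15.6% higher and 24.6% lower over all genes measured in that comparison, which are those with at least 10 UMIs over both sums. Among genes with at least 50 UMIs over both sums, 17.1% were higher and 18.6% lower. The median log2 ratio was 0.38 over the members and -0.20 over all genes, and 22 of the 32 members had a ratio above 1. The summed level of all members was 15911 CPM at day 1, against 10497 CPM in the intact cord (1.52-fold, 1.5 to 1.53).

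Both mitochondrial chaperonins were at least 2-fold higher at day 1, and Hspd1 had the highest ratio of the members. Hspd1, the large subunit of the mitochondrial chaperonin, stood at 117 CPM (intact), 503 CPM (day 1), 86.2 CPM (day 3) and 71.4 CPM (day 7) in microglia. The day 1 level was 4.32-fold the intact one (3.87 to 4.83). The median microglial cell held 4.58 Hspd1 UMIs per 10000 at day 1 and 0 in the other 3 libraries. Median depth was 3269.5, 10710, 7171.5 and 3848 UMIs per microglial cell in the same order of libraries. A median of 0 also depends on that depth, so it does not show absence of the transcript. Hspe1, its small partner subunit, stood at 383, 1011, 485 and 456 CPM in the same order of libraries. Day 1 was thus the highest library for both, and Hspe1 was 2.64-fold the intact level there (2.48 to 2.81). At day 3 and day 7 Hspe1 still lay above its intact level, whereas Hspd1 lay below its own.

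Among the cytosolic chaperones Hsp90ab1, Hspa4 and Hspa8 were higher at day 1, and Hspa1a, Hspa1b, Dnaja1 and Dnajb1 lower. Hsp90ab1, the constitutive HSP90, stood at 959, 2328, 829 and 659 CPM in intact, day 1, day 3 and day 7 microglia, and its day 1 ratio was 2.43 (2.34 to 2.53). Hspa4, an HSP110 family exchange factor of HSP70, stood at 44.6, 143, 51.5 and 46.1 CPM, with a day 1 ratio of 3.21 (2.68 to 3.87). Hspa8, the constitutive HSP70, stood at 1805, 3118, 1545 and 1443 CPM, or 1.73-fold higher at day 1 (1.68 to 1.78). These 3 genes had their highest level at day 1. Hspa1a went the other way, with 1145, 431, 209.8 and 362 CPM, and was 2.66 times lower at day 1 than in the intact cord (2.55 to 2.77). Dnajb1, an inducible J-domain partner of HSP70, stood at 253, 143, 70.9 and 105 CPM. The inducible HSP90, Hsp90aa1, was nearly level at day 1, with 777 CPM against 680.0 CPM in the intact cord (1.14-fold, 1.09 to 1.20).

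The 12 ER chaperones and folding enzymes summed to 6326 CPM in microglia at day 1, against 3660 CPM in the intact cord (1.73-fold, 1.69 to 1.76), and 11 of the 12 had a ratio above 1. Creld2, an ER protein of the unfolded protein response, stood at 50.9, 179, 43.6 and 37.0 CPM in intact, day 1, day 3 and day 7 microglia, with a day 1 ratio of 3.52 (2.98 to 4.19). Manf, a secreted ER stress protein, stood at 267, 734, 226 and 175 CPM, with a day 1 ratio of 2.75 (2.55 to 2.96). Calr, the ER lectin calreticulin, stood at 470.0, 1104, 662 and 406 CPM, with a day 1 ratio of 2.35 (2.22 to 2.49). Day 1 was the highest library for each of the 3. Sdf2l1 and Dnajc3, both co-factors of the ER HSP70, were 2.01-fold (1.86 to 2.16) and 2.04-fold (1.79 to 2.33) higher at day 1, and Hspa5, that ER HSP70 itself, 1.62-fold (1.54 to 1.69). The other ER folding genes, Hsp90b1, Canx, Pdia3, Pdia4 and Pdia6, had day 1 ratios between 1.16 (Pdia3, 1.10 to 1.22) and 1.77 (Pdia4, 1.57 to 2.00). The exception was Dnajb9, another ER J-domain protein, at 97.6 CPM on day 1 against 133 CPM in the intact cord.

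Of the signalling and degradation genes of ER stress, Ddit3, Xbp1 and Herpud1 were lower in microglia at day 1, and Atf4 was slightly higher (1.15-fold, 1.04 to 1.27). Ddit3, which encodes the transcription factor CHOP, stood at 91.7, 42.4, 31.2 and 68.6 CPM in intact, day 1, day 3 and day 7 microglia, and was 2.16 times lower at day 1 (1.87 to 2.50). Herpud1, an ER membrane protein of ER-associated degradation, stood at 296, 126, 118 and 176 CPM, and was 2.36 times lower at day 1 (2.17 to 2.56). The intact cord was the highest library for both. Xbp1, a transcription factor of the unfolded protein response, stood at 178, 129, 78.0 and 82.6 CPM, and Atf4 at 164, 189, 118 and 111 CPM. Sel1l, the adaptor of an ER ubiquitin ligase, was nearly level, at 40.8, 41.1, 35.5 and 32.2 CPM. Trib3, an ATF4 and CHOP target, counts among the 10 higher members on 3 intact UMIs, and its interval ran from 0.764 to 12.1.

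At day 3 and day 7 most microglial members lay below the intact cord, and 6 of 32 had a ratio above 1 at day 3 and 3 of 32 at day 7, Hspa4, Hspe1 and Trib3 at both. No member was 2-fold higher and 12 were 2-fold lower at day 3, beside 9.38% higher and 24.4% lower over all genes (10% and 18.3% of genes with at least 50 UMIs), and the median log2 ratio was -0.46 over the members and -0.40 over all genes. At day 7 the counts were 0 and 6, beside 6.83% and 27.9% (6.37% and 22.1% with at least 50 UMIs), with medians of -0.61 and -0.57. The share of lower members at day 7 was near that of all genes. The lower members at day 3 were Hspa1a, Hspa1b, Hsph1, Hsp90aa1, Hspb1, Dnaja1, Dnajb1, Hsf1, Dnajb9, Ddit3, Xbp1 and Herpud1. Hspa1a had the lowest ratio, at 209.8 CPM on day 3 against 1145 CPM in the intact cord (5.46 times lower, 5.22 to 5.71). Hsph1, an HSP110, stood at 50.9, 48.8, 13.6 and 18.9 CPM in intact, day 1, day 3 and day 7 microglia, and was 3.74 times lower at day 3 (3.05 to 4.56). Dnaja1, an HSP70 partner, stood at 419, 346, 152 and 202 CPM. Hsf1, the heat shock transcription factor itself, was a rare transcript, at 22.5, 17.9, 10.9 and 10.6 CPM, and was 2.07 times lower at day 3 (1.55 to 2.73). The 3 comparisons share the intact library, so any feature of that library enters all of them.

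**Figure D2:**
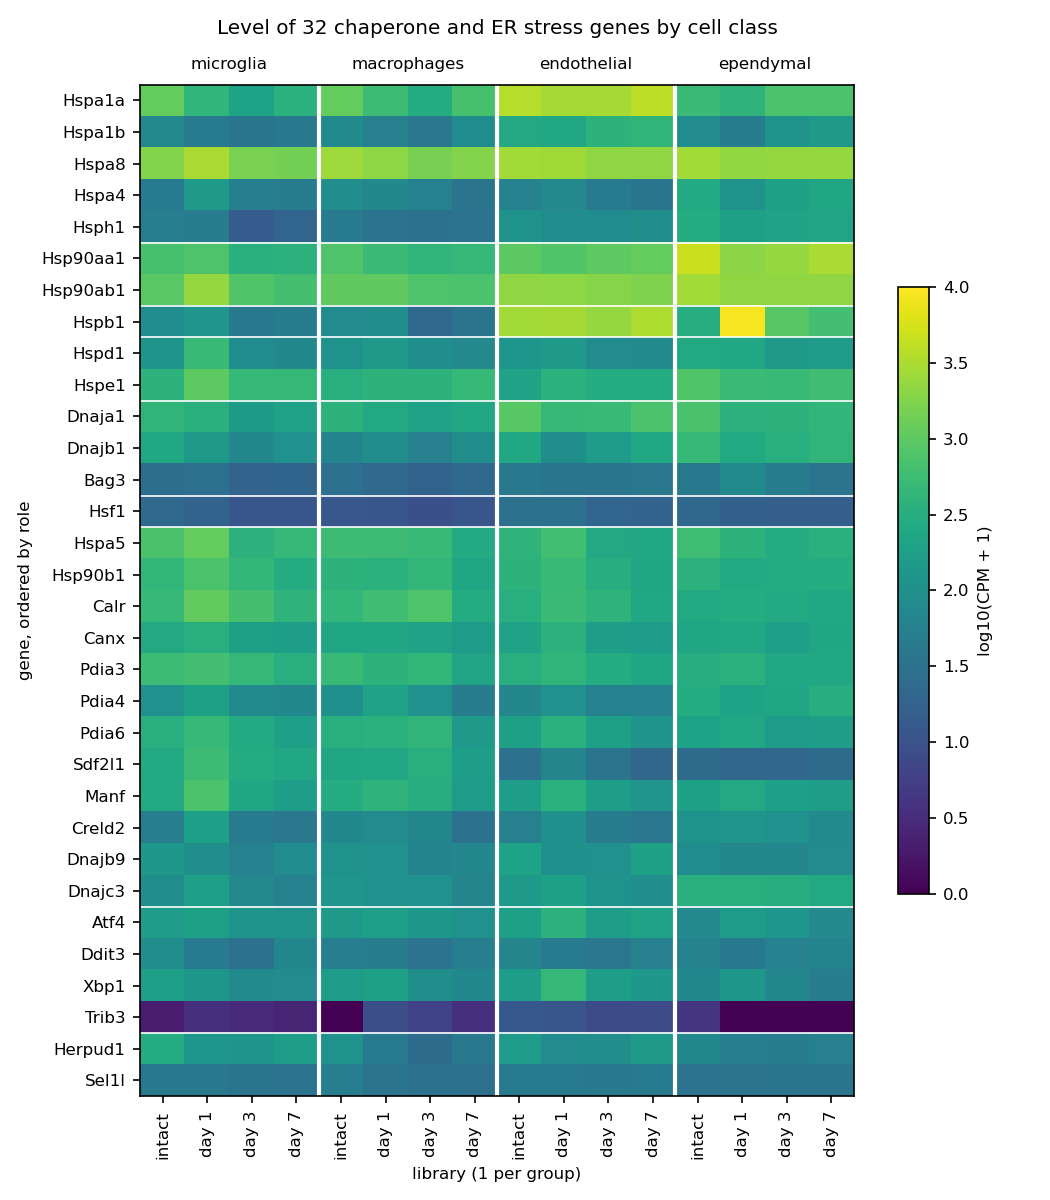
Heat map of the summed level of each of the 32 members, as log10(CPM + 1), in microglia, macrophages, endothelial and ependymal cells of the intact, day 1, day 3 and day 7 libraries. The day 1 ependymal Hspb1 cell (8911 CPM) and the intact ependymal Hsp90aa1 cell (4743 CPM) stand out.

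Several other measures differed beside these ratios. Immediate early genes, a list of 25, summed to 8758 CPM in day 1 microglia, 10763 CPM at day 3 and 14303 CPM at day 7, against 15718 CPM in intact microglia. At day 1, 11 of 25 were 2-fold lower and 2 higher, beside 24.6% lower and 15.6% higher over all genes. The microglial markers P2ry12 and Tmem119 stood at 68.4 and 249 CPM at day 1, against 1991 and 1653 CPM in the intact cord. The macrophage gene Arg1 was at 58.0 CPM in day 1 microglia and at 5330 CPM in day 1 macrophages. The median microglial cell held 10710 UMIs at day 1 and 3269.5 in the intact cord. A single gene, Cst3, took 79568 CPM of intact microglia, against 12477 CPM at day 1, 13229 CPM at day 3 and 23005 CPM at day 7. Scaling by trimmed means of M values (TMM) in place of totals moved every microglial log2 ratio up by 0.36, 0.50 and 0.65 at day 1, day 3 and day 7, and the counts of members 2-fold higher and lower were then 14 and 1, 1 and 4, and 1 and 1. The shift is the same for every gene, and the share of all genes at 2-fold under TMM is not given. These TMM counts therefore cannot be set beside all genes. The part of these measures in the ratios was not tested.

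All phagocytes together, the class formed by microglia, macrophages and cells between them, gave 5 members 2-fold higher and 2 lower at day 1, beside 13.5% higher and 27.6% lower over all genes (15.6% and 20.4% of genes with at least 50 UMIs). The counts were 1 and 10 at day 3, beside 9.2% and 33.6% (10.8% and 25.6%), and 0 and 7 at day 7, beside 6.29% and 29.8% (6.36% and 24.7%). The median log2 ratios were 0.21, -0.35 and -0.70 over the members and -0.28, -0.56 and -0.61 over all genes. Herpud1 stood at 284, 90.2, 64.1 and 137 CPM in intact, day 1, day 3 and day 7 phagocytes, and was 4.42 times lower at day 3 (4.11 to 4.76). Macrophages were 41 of 871 phagocytes in the intact cord, against 2559 of 4379 at day 1, so these ratios mix the makeup of the class with the level per cell.

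In endothelial cells the HSP70 and small heat shock genes were high in every library and differed little from the intact cord. The ER members were mixed at day 1, with 13 of 18 ratios above 1 and 5 below. Of 32 members, 4 were 2-fold higher at day 1 and 2 lower, beside 13.2% higher and 13.6% lower over all genes (11.8% and 9.72% of genes with at least 50 UMIs). The share of higher members was thus near that of all genes. No member was 2-fold higher or lower at day 3, beside 9.09% and 9.02% (5.97% and 5.48%), or at day 7, beside 5.07% and 7.71% (3.32% and 3.25%). The median log2 ratios were 0.13, -0.28 and -0.32 over the members and -0.05, -0.18 and -0.20 over all genes at day 1, day 3 and day 7. Hspa1a stood at 3579, 2850, 2843 and 3930 CPM in intact, day 1, day 3 and day 7 endothelial cells. Hspb1 stood at 2769, 2893, 2355 and 3225 CPM in the same order. Hspa8 stood at 2767, 2721, 2133 and 2184 CPM. None of the 3 differed from the intact level by more than 1.30 times at any day. Hspa1b alone of the HSP70 genes was higher at both later times, 1.46-fold at day 3 (1.36 to 1.56) and 1.58-fold at day 7 (1.46 to 1.72), and the 2 inducible copies summed to 3841, 3102, 3225 and 4346 CPM. Hspe1 stood at 199.6, 358, 298 and 299 CPM, above the intact level at each day. Hsf1 stood at 29.2, 30.6, 19.3 and 18.0 CPM.

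The 4 members that were 2-fold higher in endothelial cells at day 1, a share near that of all genes, all belong to the ER stress response. So do 18 of the 32 members. Xbp1 stood at 175, 464, 171 and 137 CPM in intact, day 1, day 3 and day 7 endothelial cells, a day 1 ratio of 2.65 (2.44 to 2.88). The median cell held 3.55 Xbp1 UMIs per 10000 at day 1 and 0 in the other libraries. Such a median also depends on depth, which was 2876.5, 4362, 3935 and 2470 UMIs per endothelial cell in the same order. Manf stood at 169, 354, 169.7 and 119.5 CPM, with a day 1 ratio of 2.09 (1.92 to 2.28). Atf4, the transcription factor of the integrated stress response, stood at 186, 375, 165 and 200.4 CPM, with a day 1 ratio of 2.02 (1.86 to 2.19). Each had its highest level at day 1. Sdf2l1 was at 64.1 CPM on day 1, against 31.7 CPM in the intact cord (2.02-fold, 1.65 to 2.48). With the mean over cells, Manf and Atf4 were just under 2-fold (log2 ratios of 0.978 and 0.996). Pdia6, Canx and Creld2, a disulfide isomerase, an ER lectin and an ER stress protein, were 1.94-fold (1.79 to 2.11), 1.86-fold (1.71 to 2.01) and 1.83-fold (1.57 to 2.14) higher.

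The 12 ER chaperones together stood at 3706 CPM in endothelial cells at day 1, against 2510.0 CPM in the intact cord (1.48-fold, 1.44 to 1.51), with 11 of 12 ratios above 1. The sum was 2140.3 CPM at day 3 and 1754 CPM at day 7, and all 12 ratios were below 1 at day 7 (summed ratio 0.699, 0.677 to 0.722). The 2 members that were 2-fold lower at day 1 were J-domain proteins. Dnajb1 stood at 243, 98.0, 162 and 249 CPM, and was 2.48 times lower at day 1 (2.25 to 2.74). Dnajb9 stood at 205, 101, 106 and 197 CPM, 2.03 times lower at day 1 (1.83 to 2.25), and Dnaja1 at 904, 476, 495 and 734 CPM. All 3 were lowest at day 1 and nearest to the intact level at day 7, where Dnaja1 was 1.23 times lower (1.17 to 1.30).

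Beside these endothelial ratios, 12 of 24 immediate early genes were 2-fold lower and 4 higher at day 1, against 13.6% lower and 13.2% higher over all genes. The sum of the immediate early genes was 15844 CPM at day 1, 20672 CPM at day 3 and 33625 CPM at day 7, against 22571 CPM in the intact cord. TMM moved the endothelial log2 ratios up by 0.11, 0.22 and 0.17. The part of both in the ratios was not tested.

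**Figure D3:**
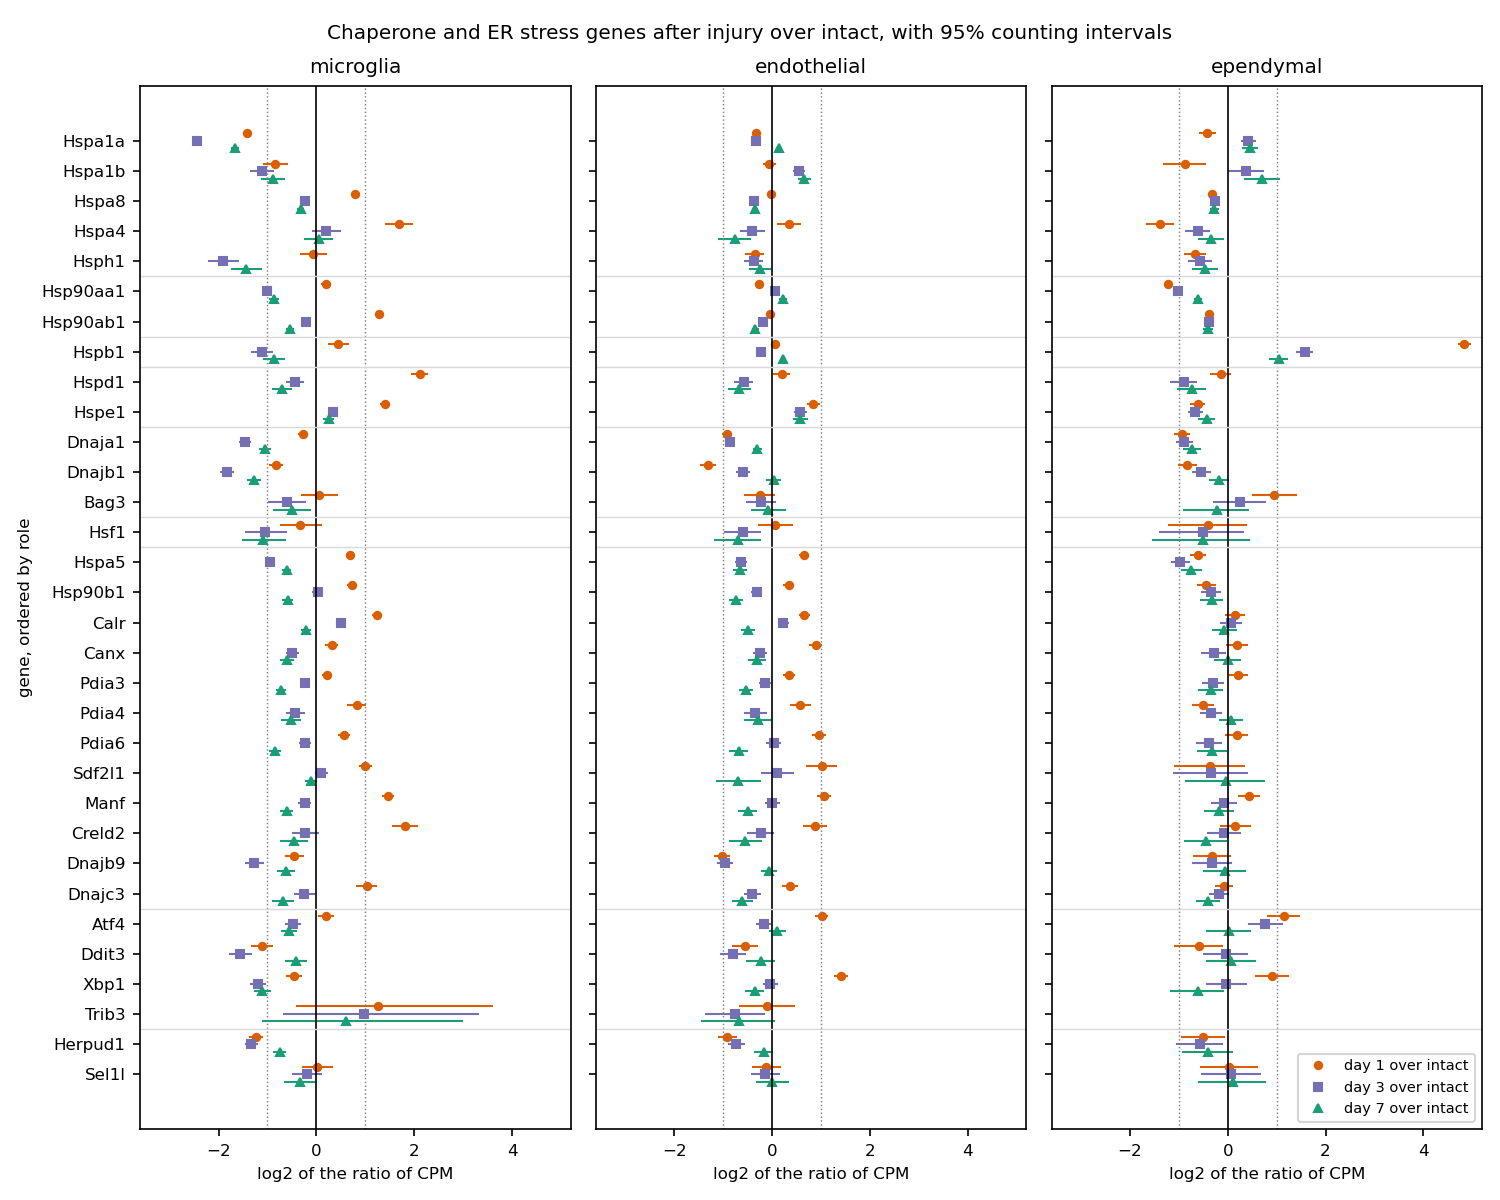
Log2 ratio of CPM against the intact library for each member in microglia, endothelial and ependymal cells at day 1, day 3 and day 7, with exact 95% counting intervals and dotted lines at 2-fold. Hspb1 in ependymal cells at day 1 lies farthest out, 28.7-fold above the intact level, and the 3 sets of points share 1 intact library.

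Ependymal cells, the ciliated lining of the central canal, had the largest single ratio. Hspb1 stood at 311 CPM (intact), 8911 CPM (day 1), 924 CPM (day 3) and 641 CPM (day 7), which was 28.7-fold (26.4 to 31.2), 2.97-fold (2.69 to 3.29) and 2.06-fold (1.83 to 2.32) the intact level. The day 1 UMIs were spread over cells. At day 1 the quartiles were 26.4, 61.7 and 123 Hspb1 UMIs per 10000 in a cell, and the cell with most held 2.49% of the UMIs. In the intact cord the median ependymal cell held 0, and 90% of the cells held at most 8.78 per 10000. The day 1 level also lay above the endothelial level of that library (2893 CPM).

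Marker levels of the same cells differed too. Gfap, an astroglial filament gene, was at 1974 CPM in day 1 ependymal-gated cells, against 41.1 CPM in the intact cord, with 251 CPM at day 3 and 141 CPM at day 7. The ciliary and ependymal genes Ccdc153 and Tmem212 were at 409.8 and 566 CPM at day 1, against 1923 and 1497 CPM in the intact cord. Foxj1, the master factor of motile cilia, was at 332 CPM at day 1 and 345 CPM in the intact cord. A further 133 cells of the day 1 library passed the astrocyte gate, with 8447 CPM of Hspb1, but their support as astrocytes was weak, since Gfap stood at 2428 CPM while Aqp4, Slc1a2 and Gjb6 stood at 16.8, 11.2 and 0 CPM. The part of the altered marker levels in the Hspb1 ratio was not tested.

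The other ependymal members differed less. At day 1, 2 of 31 members measured (Hspb1 and Atf4) were 2-fold higher and 2 lower, beside 12.2% higher and 17.9% lower over all genes (11% and 13.4% of genes with at least 50 UMIs), with median log2 ratios of -0.36 over the members and -0.15 over all genes. At day 3 there was 1 higher and 1 lower, beside 8.56% and 10.4% (5.42% and 4.86%), and at day 7 it was 1 and 0, beside 7.15% and 9.65% (3.63% and 4.16%). The shares of higher and lower members were thus at or below those of all genes at each time. Hsp90aa1 stood at 4743, 2035, 2338 and 3123 CPM in intact, day 1, day 3 and day 7 ependymal cells. The intact library was the highest, and the day 1 level was 2.33 times lower (2.24 to 2.43). Hspa4 stood at 281, 108, 184 and 222 CPM, 2.60 times lower at day 1 (2.17 to 3.13), opposite to its direction in microglia. Hspa5 stood at 579, 380.4, 296 and 347 CPM, 1.95 times lower at day 3 (1.74 to 2.21).

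Of the stress signalling genes, Atf4 and Xbp1 were higher in ependymal cells at day 1 and Ddit3 was lower. Atf4 stood at 74.1, 164, 126 and 75.4 CPM in intact, day 1, day 3 and day 7 ependymal cells, with a day 1 ratio of 2.21 (1.78 to 2.74). Xbp1 stood at 71.9, 134, 70.6 and 47.2 CPM, with a day 1 ratio of 1.87 (1.49 to 2.34). Both had their highest level at day 1. Ddit3 stood at 59.5, 39.7, 57.8 and 62.5 CPM, 1.5 times lower at day 1 (1.08 to 2.10). Bag3, an HSP70 co-chaperone of stressed cells, was at 77.3 CPM on day 1, against 40.0 CPM in the intact cord (1.93-fold, 1.43 to 2.63). The 12 ER chaperones summed to 2804 CPM at day 1, against 3008 CPM in the intact cord (0.932-fold, 0.895 to 0.971), with 6 ratios above and 6 below 1. Hspa1a stood at 539.9, 405, 724 and 745 CPM, so its day 3 and day 7 levels lay above the intact one, 1.34-fold (1.22 to 1.47) and 1.38-fold (1.25 to 1.53). Immediate early genes summed to 21491 CPM at day 1, 26024 CPM at day 3 and 19647 CPM at day 7, against 24787 CPM in the intact cord, and their part was not tested.

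In the other classes below, Hspb1 at day 1 was lower than in ependymal cells. Fibroblasts held 566, 573, 743 and 785 CPM in the intact, day 1, day 3 and day 7 libraries, and pericytes 1035 CPM (day 1), 1689.8 CPM (day 3) and 1342 CPM (day 7), which was above the ependymal level at day 3 and day 7 for pericytes, and in the intact cord and at day 7 for fibroblasts. In microglia it stood at 88.2, 120, 40.9 and 48.3 CPM. The intact microglial level was 3.18% of the endothelial one, where the endothelial genes Cldn5 and Flt1 stood at 2.88% and 2.94%, so intact microglial Hspb1 lay at the level of free RNA. At day 1 Hspb1 in microglia was 4.16% of the endothelial level, beside 0.606% for Cldn5. Ependymal cells held more Hspb1 than endothelial cells at day 1 (8911 against 2893 CPM). The endothelial share therefore does not measure free Hspb1 RNA from all sources. Hspa1a in microglia lay well above that background, at 32% of the endothelial level in the intact cord and 15.1%, 7.38% and 9.20% at day 1, day 3 and day 7. In neutrophils Hspb1 stood at 38.7, 656, 28.1 and 50.9 CPM in the intact, day 1, day 3 and day 7 libraries. Of the day 1 neutrophil UMIs, 24.2% came from 1 cell. The share of neutrophils with an Hspb1 UMI was 14.3% in the intact cord and 39.3% at day 1. Oligodendrocyte precursors held 24.1 (2 UMIs), 244, 68.3 and 49.0 CPM in the same order, so a higher day 1 level was not particular to ependymal cells.

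Read across microglia, endothelial and ependymal cells, 9 of the 32 members had counting intervals on the same side of 1 in every class at day 1. Further members shared a direction with an interval that included 1 in some class. Of the 9, 4 had counting intervals above 1 in all 3 classes: Hspb1, Pdia3, Manf and Atf4. For Hspb1 in microglia the intact level lay at that of free RNA. Another 5 had intervals below 1 in all 3: Hspa1a, Dnaja1, Dnajb1, Ddit3 and Herpud1. Of 5681 genes with at least 50 UMIs over both sums in every class, 14% lay above 1 and 11.2% below 1 in all 3, so the members' shares were near those of all genes. With TMM scaling these counts were 7, with Calr, Canx and Pdia6 added, and 2, with Hspa1a and Dnajb1, beside 19.3% and 7.45% of those genes. A further 9 members, Hspa4 and Xbp1 among them, had intervals on opposite sides of 1 in different classes at day 1. By the same rule, at day 3 there were 0 higher and 11 lower in every class, beside 8.54% and 11.4%. With TMM there were 0 and 4, beside 12.4% and 6.09%. At day 7 there were 0 and 12, beside 6.84% and 8.41%, and with TMM 0 and 3, beside 10.5% and 3.14%. The classes share the intact library, and genes of high counts, as many members are, pass such an interval more readily than rare ones. The members with intervals below 1 in every class at day 3 under both scalings were Dnaja1, Dnajb1, Hspa5 and Herpud1.

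Macrophages, which enter the cord after injury, could be compared only among the injured libraries. Against day 1, day 3 macrophages had 0 members 2-fold higher and 1 lower, beside 8.22% and 13.7% over all genes (6.67% and 10.4% of genes with at least 50 UMIs). Day 7 macrophages had 0 higher and 9 lower, beside 9.99% and 16.1% (6.53% and 15.9%), with median log2 ratios of -0.56 over the members and -0.24 over all genes. The ER chaperone sum was 3583 CPM at day 1, 3741 CPM at day 3 and 1865 CPM at day 7. All 12 ER ratios were below 1 at day 7 against day 1 (summed ratio 0.520, 0.505 to 0.536).

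Pdia4, a disulfide isomerase of the ER, stood at 198, 104 and 48.8 CPM in day 1, day 3 and day 7 macrophages, and was 4.05 times lower at day 7 than at day 1 (3.39 to 4.86). Manf stood at 399.5, 311 and 162 CPM, 2.47 times lower at day 7 (2.24 to 2.73), and Xbp1 at 188, 96.8 and 73.8 CPM, 2.55 times lower (2.21 to 2.97). Calr was highest at day 3, at 585, 787 and 288 CPM, and so was Sdf2l1, at 238, 332 and 173 CPM. The ER genes thus had no common day of highest level. Hspb1 stood at 90.2, 22.3 and 33.2 CPM, 4.04 times lower at day 3 (3.66 to 4.45). Hspa1a stood at 551, 302 and 682 CPM, and its day 7 ratio of 1.24 (1.18 to 1.30) lost its direction when cells were gated without a margin (log2 ratio -0.04). Beside these, Arg1 stood at 5330, 1842 and 72.6 CPM in the 3 macrophage libraries, and the summed immediate early genes at 10358, 5117 and 8021 CPM. Their part in the ratios was not tested.

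Other genes of the same pathways, lists chosen with earlier results of these data known, gave the context of the members. In microglia at day 1, 15 of 38 other cytosolic and mitochondrial chaperones were 2-fold higher and 3 lower, and the higher ones included Tcp1, Cct2, Cct3, Cct5, Cct7 and Cct8, subunits of the cytosolic chaperonin. Of 51 other ER genes, 13 were higher and 3 lower. Over all genes, 15.6% were higher and 24.6% lower in that comparison. Txndc5, an ER thiol oxidoreductase, was at 116 CPM in day 1 microglia, against 16.2 CPM in the intact cord (7.18-fold). Ppp1r15a, the phosphatase subunit that ends the integrated stress response, was at 113 CPM against 406 CPM (3.58 times lower, 3.33 to 3.86).

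In endothelial cells at day 1 the same lists gave 3 higher and 1 lower of 38, and 8 higher and 0 lower of 50. Over all genes, 13.2% were higher and 13.6% lower there. Asns, an ATF4 target that makes asparagine, was at 59.5 CPM at day 1, against 15.2 CPM in the intact cord (3.90-fold). In ependymal cells at day 1 the lists gave 1 and 1 of 39, and 4 and 0 of 47, beside 12.2% and 17.9% over all genes. Chordc1, an HSP90 co-chaperone, was at 30.8 CPM in day 1 ependymal cells, against 91.9 CPM in the intact cord. In macrophages at day 7 against day 1, 13 of 50 other ER genes were 2-fold lower and 1 higher. Over all genes, 16.1% were lower and 9.99% higher in that comparison. Ero1l, the ER oxidase, was at 25.3 CPM at day 7, against 136 CPM at day 1 (5.37 times lower, 4.21 to 6.94). Bag1, an HSP70 co-chaperone, had the highest ratio of both lists at each time in microglia, endothelial and ependymal cells. At day 1 it stood at 283 CPM against 28.8 CPM in the intact cord in microglia, 245.5 against 38.5 CPM in endothelial cells, and 221 against 27.0 CPM in ependymal cells.

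After injection, at most 1 member differed by 2-fold between MPSS and PBS in each class with enough cells for a ratio. In phagocytes 0 of 31 members were 2-fold higher with MPSS and 1 was lower, beside 2.71% and 3.37% over all genes (0.526% and 0.807% of genes with at least 50 UMIs), with median log2 ratios of 0.06 over the members and -0.02 over all genes. In microglia (251 MPSS cells, 170 PBS cells) 0 of 30 were higher and 1 lower, beside 4.26% and 3.46% (1.17% and 0.802%). In macrophages (472 and 339 cells) the counts were 0 and 1, beside 2.9% and 3.79% (0.598% and 1.2%). In oligodendrocytes (492 and 274 cells) they were 0 and 1, beside 3.11% and 3.36% (0.719% and 0.597%), and in fibroblasts (152 and 119 cells) 0 and 0 of 30, beside 3.1% and 5.62% (0.765% and 1.7%). The 1 lower member was Hspa1b in phagocytes, microglia and macrophages. In oligodendrocytes it was Trib3, which rested on few UMIs, at 1.22 CPM with MPSS and 2.65 CPM with PBS, and its interval included 1 (2.17 times lower, 0.687 to 7.03).

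Hspa1b stood at 32.5 CPM in MPSS phagocytes, against 87.8 CPM in PBS phagocytes (2.70 times lower, 2.40 to 3.04). Hspa1a was not analysed in these libraries, and whether reads of that near-identical copy were counted under Hspa1b is not known, so the level may be of both copies. Hspa1b was at 27.4 CPM with MPSS and 136 CPM with PBS in microglia (4.96 times lower, 3.82 to 6.50), and at 29.9 and 75.3 CPM in MPSS and PBS macrophages (2.52 times lower, 2.11 to 3.01). In oligodendrocytes and fibroblasts the difference was small. Oligodendrocytes held 130.2 CPM with MPSS and 160.2 CPM with PBS (1.23 times lower, 1.10 to 1.38), and fibroblasts 729 and 756 CPM with MPSS and PBS (1.04 times lower, 0.961 to 1.12). For free RNA of endothelial cells, Cldn5 was at 0.00978% (MPSS) and 0.0181% (PBS) of its endothelial level in phagocytes. Hspa1b was at 2.35% and 9.14% of its own endothelial level there. Fibroblasts and oligodendrocytes also held Hspa1b, so Cldn5 does not measure free Hspa1b RNA from all sources. Endothelial cells were too few for a ratio (31 with MPSS, 32 with PBS), and held 1383 CPM of Hspa1b with MPSS and 961 CPM with PBS. Their Hspb1 stood at 4632 CPM with MPSS and 1603 CPM with PBS. The endothelial sum of all members was 22448 CPM with MPSS and 15356 CPM with PBS. Immediate early genes summed to 15995 CPM in MPSS microglia, against 18743 CPM in PBS microglia, and their part was not tested.

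Some ER genes, Sdf2l1 and Manf among them, were higher with MPSS, by less than 2-fold, while others were near or below the PBS level. Of the ER members measured, 12 of 18 in phagocytes, 10 of 17 in microglia and 11 of 18 in macrophages had a ratio above 1. Sdf2l1 stood at 483 CPM in MPSS phagocytes, against 323 CPM in PBS phagocytes (1.5-fold, 1.43 to 1.56), and its ratio was 1.38 (1.27 to 1.51) in microglia, 1.64 (1.53 to 1.76) in macrophages, 1.47 (1.27 to 1.72) in oligodendrocytes and 1.27 (1.07 to 1.51) in fibroblasts. Manf stood at 443 CPM in MPSS phagocytes and 320.1 CPM in PBS phagocytes (1.38-fold, 1.32 to 1.45). Creld2 was at 42.7 CPM in MPSS macrophages, against 24.1 CPM in PBS macrophages (1.77-fold, 1.42 to 2.22). Over microglia, macrophages, oligodendrocytes and fibroblasts, 3 members (Sdf2l1, Manf and Dnajc3) had intervals above 1 in every class and 1, Dnajb1, below 1 in every class, beside 1.23% and 1.09% of genes with at least 50 UMIs in every class. With TMM scaling the first count was 4, with Calr added, and the second 0, beside 2.27% and 0.687%. Dnajb1 stood at 64.2 CPM in MPSS microglia, against 128 CPM in PBS microglia (2.00 times lower, 1.64 to 2.44). The sum of the 12 ER chaperones differed little, at 3306 CPM in MPSS and 2879 CPM in PBS macrophages (1.15-fold, 1.12 to 1.17), and at 6392 and 6184 CPM in MPSS and PBS microglia (1.03-fold, 1.01 to 1.06).

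Ddit3 went in opposite directions between classes. It was at 117 CPM in MPSS oligodendrocytes, against 86.6 CPM in PBS oligodendrocytes (1.35-fold, 1.17 to 1.57), and at 76.9 CPM in MPSS macrophages, against 107 CPM in PBS macrophages (1.39 times lower, 1.23 to 1.57). The summed immediate early genes of oligodendrocytes were at 9002 CPM with MPSS and 6311 CPM with PBS, with 20 of 21 ratios above 1. Their part in the Ddit3 ratio was not tested. From the other pathway lists, Cryab, a small heat shock protein, was at 83.3 CPM in MPSS fibroblasts and 38.6 CPM in PBS fibroblasts.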

How the data were processed

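Single-cell RNA sequencing libraries of rat spinal cord were made on a 10x droplet platform, 1 per group, per the labels' protocols. The authors deposited UMI counts per gene and cell for 6 libraries, as raw counts with no normalization. Cell Ranger 3.0.2 is named in the submitters' processing notes, and version 3.1.0 stands in the headers of the injected matrices, per the file headers. The annotation used is not given in the sources used here, and gene names were used as the files give them.

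Barcodes under 200 genes or under 500 UMIs, or with over 20% of UMIs from mitochondrial genes, were dropped, which left 2091 of 2339 MPSS and 1377 of 1513 PBS barcodes. Each cell was scored against 18 marker lists as the mean over markers of the log of its UMIs per 10000 plus 1, divided by the 99.5th percentile of that marker and capped at 1. A class needed at least 3 markers found, a score of at least 0.08 and a second-best score of at most 0.6 times the best. Cells over that margin were set aside as mixed (1.67% to 10.2% of a library). Phagocytes were split into microglia and macrophages by the same margin. No doublets were removed in the values reported, and the caller in scanpy 1.11.5 marked under 0.5% of the cells of most libraries. A rate of 0.8% doublets per 1000 cells would give 5.88% of cells at day 1 and 7.41% at day 3, so doublets may remain.

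UMIs were summed per class and library and given as CPM. A ratio needed 50 cells in both classes compared, a level 25 cells, and a gene 10 UMIs over both sums to be counted as measured. A gene was called higher or lower at a ratio of 2-fold, and intervals are exact, from the Poisson distribution for levels and the conditional binomial for ratios. The computation recovered known ratios from simulated Poisson counts. That simulation held no spread between cells or libraries, so it checks the computation only. Members named for a comparison were the 3 highest and 3 lowest by log2 ratio of CPM + 10 among those with at least 50 UMIs, with the 2 highest and 2 lowest of the other pathway lists, of which a selection is printed and 1 gene is not reported here. Further members and marker genes were named after their values were seen. The members and lists were chosen with earlier results of these data known. Tools were Python 3.11.15, numpy 2.4.6, scipy 1.17.1, pandas 2.3.3, R 4.3.3 and edgeR 4.0.16, the last for TMM factors alone.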

Additional observations from a re-analysis of the deposited data

Results flagged for a closer look

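The log2 ratio of Hspa4 at day 1 against the intact cord was 1.68 in microglia and -1.38 in ependymal cells, opposite directions under the same comparison. The log2 ratio of Hspb1 at day 3 against the intact cord was 1.57 in ependymal cells and -1.11 in microglia, where the intact level lay at that of free RNA. Neither difference between classes was tested, since each group has 1 library.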

How the results depend on the processing

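No paired analysis was possible because each group has 1 library. The depth limits rare members: Trib3 and Hsf1 rested on few UMIs in most classes. Under 10 other settings, and 2 more chosen after seeing the data, 1278 values of 114 results for named genes were recomputed, and 1123 of them moved by no more than the counting error. Members 2-fold higher and lower in phagocytes at day 1 numbered 11 and 1 with TMM scaling, and 10 were higher in microglia alone. At day 3, TMM gave 2 higher and 3 lower, and microglia 0 higher. At day 7, TMM gave 1 higher and 0 lower, totals without mitochondrial and ribosomal genes gave 4 lower, the mean over cells gave 4 lower, and leaving out the highest cell of each gene gave 1 higher. In endothelial cells at day 1, TMM and totals without mitochondrial and ribosomal genes each gave 1 lower, and the mean over cells gave 2 higher and 1 lower, with 1 lower at day 7. No share of all genes at 2-fold is given for these other scalings, so their counts cannot be set beside all genes.

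Of 43 named ratios at 2-fold, 14 were under 2-fold in at least 1 alternative (21 values). The direction turned in 5 values of 4 results, none of them 2-fold: Hspa4 in phagocytes at day 7 was -0.12 on the log2 scale, against 0.56 with TMM and 0.05 in microglia. Sdf2l1 at day 7 was -0.25 in phagocytes and -0.11 in microglia, against 0.43 and 0.54 with TMM. Hspa1a in day 7 against day 1 macrophages was 0.31, against -0.04 with no gate margin. The cause was not tested. The ependymal Hspb1 log2 ratio at day 1 was 4.84, with alternatives from 4.69 to 5.00, and the phagocyte Hspa1b log2 ratio of MPSS over PBS was -1.43, with alternatives from -1.40 to -1.79, and -2.31 in microglia.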
